A study of Xenopus laevis with 24 samples.

Results

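Extracellular modulators of bone morphogenetic protein (BMP) signalling were followed in whole *Xenopus laevis* gastrulae exposed to a retinoic acid receptor agonist or inverse agonist. The members were the transcript records whose deposited description names chordin, noggin, follistatin, kielin, twisted gastrulation, sizzled, frzb3, tolloid, xolloid, cerberus or gremlin, provided that their average over all libraries reached 0.5 FPKM. FPKM counts fragments per unit of transcript length and of library size, so levels of different records can be set side by side. This rule gave 13 members among 31306 records. It matched 16 records, and 3 of those lay under the minimum. The member just inside it was noggin4, with a mean of 0.512 FPKM, and the record just outside it was crim1, described as chordin-like, with 0.198 FPKM. The other records outside were noggin 2 (0.0662 FPKM) and a record described as twisted gastrulation 2 (0.0571 FPKM). The records described as secreted Xwnt8 inhibitor sizzled (szl) and as putative wnt inhibitor frzb3 are called sizzled and frzb3.

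BMP ligands specify ventral fates in the frog gastrula, and the dorsal organizer secretes antagonists that bind these ligands and keep them from their receptors. Chordin, noggin and cerberus are such antagonists, and gremlin also acts as a BMP antagonist. Tolloid-class metalloproteases, among them xolloid, cut chordin and release the ligand, and sizzled, a secreted frizzled-related protein made on the ventral side, inhibits those proteases. Twisted gastrulation binds chordin and BMP together. Kielin is a secreted protein with the cysteine-rich repeats that chordin also has.

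The comparisons were between 3 exposures, each with 8 libraries, 4 from clutch E and 4 from clutch D, which made 24 libraries of 5 pooled embryos each. The labels name no allele, strain or transgene for any group. Embryos of stage 6 to 7 were placed in dishes of 25 and received TTNPB, which activates retinoic acid receptors selectively, at 1 µM, AGN193109, which acts on those receptors as an inverse agonist, at 1 µM, or 0.1% ethanol as vehicle. Every dish was harvested at stage 10.5, the early gastrula, and no label says which libraries shared a dish. The sibships that vary independently are therefore the 2 clutches, and a p-value measures the spread between pools, which may be technical in part.

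The stage was checked against marker lists, by means over the libraries of both clutches together. Of 9 records of gastrula layer genes 8 averaged 1 FPKM or more, up to 184 FPKM for *sox3*, whereas 3 of 30 records of later tissues reached that level and the highest of them had 1.802 FPKM. The values keep no read counts, so depth is unknown. AGN193109 replicate 4E stood apart from the other 23 libraries. Its median over the tested records was 2.77 FPKM, against 4.23 to 5.76 FPKM in the others, and 79.2% of its FPKM fell on the 10 records with the highest values, against 44.1% to 62.8% elsewhere. It was the lowest AGN193109 library for 10 of the 13 members, and results of single records that rest on it are given with and without it. The other libraries also differed in the share of their 10 highest records. It was 57.0% to 62.8% in TTNPB 1D, 2D and 3D, AGN193109 1D, 3D and 2E, and vehicle 1D, 2D and 4D. In the rest it was 44.1% to 51.3%. All libraries with the higher share but AGN193109 2E were of clutch D, and how far this enters the clutch comparison was not tested.

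Chordin and cerberus were the most abundant members by a wide margin. Chordin averaged 63.3 ± 13.6 FPKM and cerberus 62.6 ± 8.55 FPKM (SD, n = 24 libraries), which differed by less than the spread of either record. A group with overlapping ranges came next. The record described as twisted gastrulation mRNA averaged 9.63 ± 3.35 FPKM, sizzled 8.53 ± 5.16, xFRP 7.03 ± 2.27 and frzb3 5.13 ± 3.77 FPKM. xFRP is described as a follistatin-related protein, and no member is described as follistatin itself. The proteases were lower, with xolloid-like at 4.63 ± 1.35 FPKM and xolloid at 2.81 ± 0.623 FPKM. The record described as twisted gastrulation protein averaged 2.82 ± 1.81 FPKM and noggin 2.58 ± 0.765 FPKM. Kielin (1.37 ± 1.33), gremlin (1.25 ± 0.652) and noggin4 (0.512 ± 0.604 FPKM) were the least abundant, and noggin4 was listed at 0 in 5 libraries.

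**Figure D1:**
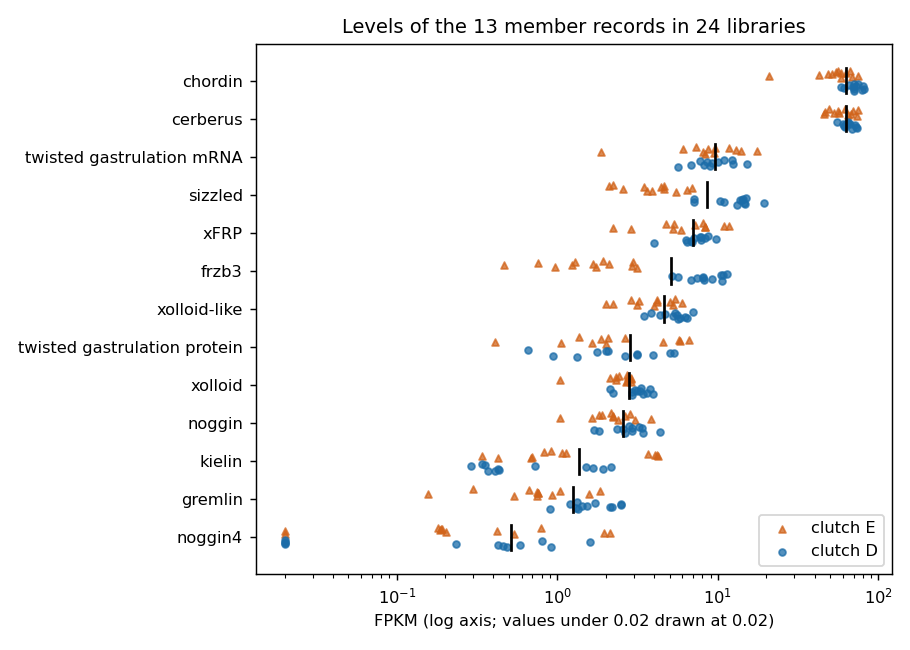
FPKM of each member record (rows, ordered by mean) on a log axis in 24 libraries, with triangles for clutch E, circles for clutch D and a black bar at the mean over all libraries. Chordin and cerberus average 63.3 and 62.6 FPKM, and the clutches separate completely for sizzled and frzb3.

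Several members share a gene name. In RefSeq (gene table of Xenopus_laevis_v10.1), frzb3 stands as another name of szl.L and szl.S, the sizzled genes of the L and S subgenomes, so the sizzled and frzb3 records may be copies or alleles of sizzled. The same table gives tsg as a name of twsg1.L and twsg1.S, to which the pair of twisted gastrulation records may belong. It lists xFRP among the names of fstl1.L (follistatin-like 1) and also holds a gene under the symbol xfrp. The sources do not say how the authors' counting split reads between such copies, so the values of each copy are uncertain and sums over the pairs are given below. The sequences behind the records were not used here.

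Kielin and twisted gastrulation protein were higher in TTNPB embryos than in vehicle embryos, and no member was called lower. Differences were tested on log2(FPKM + 1) in 1 limma fit that held all 24 libraries and had terms for exposure and for clutch, with Benjamini-Hochberg adjustment over the 19635 records averaging 1 FPKM or more and a threshold of 0.05. Of the 13 members 12 were tested, and noggin4 fell under the minimum. TTNPB changed 2 of 12 members against vehicle, both higher, where 0.83% of all tested records were called and 0.784% were called higher. Per-record differences on this scale understate the change of low records. In whole embryos, fewer cells expressing a gene and less RNA per cell cannot be told apart.

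Kielin rose in TTNPB embryos of each clutch. In clutch E it had 4.22, 4.20, 4.09 and 3.67 FPKM with TTNPB, against 1.07, 1.13, 0.822 and 0.919 FPKM with vehicle. In clutch D it had 1.92, 1.68, 1.499 and 2.17 FPKM with TTNPB, against 0.292, 0.727, 0.354 and 0.342 FPKM with vehicle. Every TTNPB library thus lay above every vehicle library, including those of the other clutch, which was the case for 0.509% of tested records. The means were 2.93 ± 1.22 FPKM with TTNPB and 0.707 ± 0.338 FPKM with vehicle (SD, n = 8 each), a ratio of 4.15. The log2 difference was 1.17 ± 0.13 (SE, limma adjusted p = 1.29e-06) over all libraries. It was 1.35 in clutch E alone (limma adjusted p = 0.00108) and 0.98 in clutch D alone (limma adjusted p = 0.0372). With clutch means taken as the replicates, the limma adjusted p was 0.272.

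Of the twisted gastrulation records, the one described as a protein rose in TTNPB embryos. It had 4.56, 5.84, 6.64 and 5.73 FPKM in TTNPB embryos of clutch E and 3.94, 3.12, 5.29 and 5.04 FPKM in those of clutch D. In vehicle embryos it had 1.87, 2.05, 2.63 and 1.36 FPKM in clutch E and 1.78, 2.004, 2.05 and 0.653 FPKM in clutch D. The groups did not overlap. Means were 5.02 ± 1.13 FPKM with TTNPB and 1.801 ± 0.583 FPKM with vehicle (SD, n = 8 each), a log2 difference of 1.11 ± 0.20 (SE, limma adjusted p = 0.00187). The difference was close in size in clutch E alone (1.18) and clutch D alone (1.05), but it passed the threshold in neither (limma adjusted p = 0.0791 and 0.288), nor with clutch means as replicates (limma adjusted p = 0.282).

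The more abundant record, described as twisted gastrulation mRNA, overlapped widely between the groups. Its lowest, median and highest values were 6.06, 12.7 and 17.5 FPKM with TTNPB, against 7.32, 9.82 and 12.2 FPKM with vehicle. Its log2 difference was 0.22 ± 0.23 (SE, limma adjusted p = 0.999). Summed over the pair, twisted gastrulation had 16.99 ± 3.71 FPKM with TTNPB and 11.6 ± 1.77 FPKM with vehicle (SD, n = 8 each), a log2 difference of 0.50 ± 0.21 (SE, limma adjusted p = 0.674). The protein record made up 30.9 ± 10.0% of that sum with TTNPB and 15.8 ± 5.01% with vehicle.

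**Figure D2:**
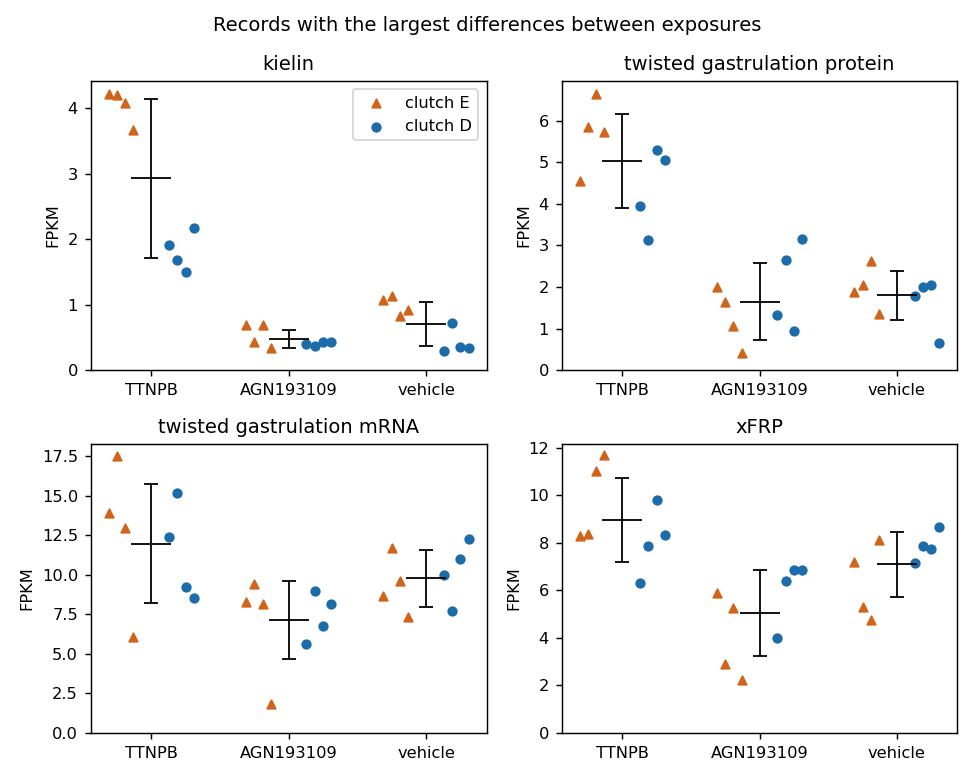
FPKM (linear axes from 0) of kielin, the twisted gastrulation records and xFRP in TTNPB, AGN193109 and vehicle libraries, with triangles for clutch E, circles for clutch D, and bars for the mean and SD of 8 libraries. Every TTNPB library lies above every vehicle library for kielin and for twisted gastrulation protein, and not for twisted gastrulation mRNA or xFRP.

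Beside twisted gastrulation mRNA, the other 9 tested members did not pass the threshold between TTNPB and vehicle either. Chordin had its lowest, median and highest values at 42.5, 58.8 and 80.6 FPKM with TTNPB, against 54.1, 66.3 and 75.1 FPKM with vehicle. The log2 difference of chordin was -0.17 (95% interval -0.53 to 0.19), and 7 of 8 TTNPB libraries lay at or below the vehicle mean of their clutch. Cerberus, frzb3 and noggin4 gave the same count, which was not made over all tested records, so no weight is placed on it. Sizzled ran from 2.57 through a median of 6.98 to 13.7 FPKM with TTNPB, against 2.10, 5.86 and 14.9 FPKM with vehicle. The log2 difference of sizzled was 0.04 (95% interval -0.36 to 0.44). That of frzb3 was -0.24 (95% interval -0.65 to 0.16), and the sum of both records gave -0.10 (95% interval -0.43 to 0.23). For 5 of the 12 tested members, the 95% interval lay within 0.5 on the log2 scale in either direction. The antagonists noggin, cerberus and gremlin differed by -0.20, -0.12 and 0.08 on the log2 scale, and the proteases xolloid and xolloid-like by -0.03 each. In a fit with a minimum of 0.5 FPKM noggin4 differed by -0.23 (limma adjusted p = 0.999).

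None of the 12 tested members was called between AGN193109 and vehicle, where 0.0204% of all tested records were called. Leaving out AGN193109 replicate 4E raised the calls over all records to 16 from 4 here, and to 300 from 163 for TTNPB against vehicle, with the count of members at 0 and 2 as before. The limma test gave 2 members an unadjusted p under 0.05, and the members' differences ran from -0.47 to 0.38. Those 2 were xFRP and twisted gastrulation mRNA, both lower in AGN193109 embryos. xFRP had 5.89, 2.88, 5.25 and 2.21 FPKM with AGN193109 in clutch E, against 7.17, 5.30, 4.77 and 8.10 FPKM with vehicle. In clutch D it had 4.01, 6.38, 6.86 and 6.84 FPKM with AGN193109, against 7.14, 7.85, 7.73 and 8.66 FPKM with vehicle. Each of the 8 AGN193109 libraries was below the mean of the vehicle libraries of its clutch, and the values overlapped within clutch E and not within clutch D. How many of all tested records separated in this way within a clutch was not counted, so no weight is placed on it. The log2 difference of xFRP was -0.47 ± 0.17 (SE, limma adjusted p = 0.456), and -0.36 without AGN193109 replicate 4E (limma adjusted p = 0.308).

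Twisted gastrulation mRNA had a log2 difference of -0.47 ± 0.23 between AGN193109 and vehicle (SE, limma adjusted p = 0.591). Without replicate 4E, in which it had 1.86 FPKM, the difference was -0.27. Sizzled was above the vehicle mean of its clutch in 8 of 8 AGN193109 libraries, with 10.2 FPKM with AGN193109 and 7.99 FPKM with vehicle on average, and a log2 difference of 0.38 (95% interval -0.02 to 0.78, limma adjusted p = 0.614). In clutch D its medians were 14.7 FPKM with AGN193109 and 14.3 FPKM with vehicle, and vehicle 2D, at 7.08 FPKM, lowered the vehicle mean. The share of all tested records with such a count was not computed, so no weight is placed on it. Kielin averaged 0.473 ± 0.138 FPKM with AGN193109 and 0.707 ± 0.338 FPKM with vehicle (SD, n = 8 each), a log2 difference of -0.19 (95% interval -0.45 to 0.07, limma adjusted p = 0.729). Chordin averaged 65.4 FPKM in both groups, although replicate 4E had 20.9 FPKM and the other AGN193109 libraries had 58.9 to 80.8 FPKM. Its log2 difference was -0.08 with that library and 0.11 without it (limma adjusted p = 0.924 and 0.589).

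Set against each other at the same dose, the agonist and the inverse agonist differed in 3 of 12 members, all higher with TTNPB. Of all tested records 1.08% were called and 0.978% were called higher. The TTNPB libraries of this comparison also serve the one with vehicle, so these calls are not independent of those above. Kielin had a log2 difference of 1.36 ± 0.13 (SE, limma adjusted p = 5.04e-08), and of 1.30 without AGN193109 replicate 4E (limma adjusted p = 6.83e-08). Its values were 1.499 to 4.22 FPKM with TTNPB and 0.341 to 0.692 FPKM with AGN193109, so the groups did not overlap, which held for 0.576% of tested records. Twisted gastrulation protein had 3.12 to 6.64 FPKM with TTNPB and 0.408 to 3.15 FPKM with AGN193109, which overlapped at 1 library of each group. Its log2 difference was 1.24 ± 0.20 (SE, limma adjusted p = 3.47e-04), and 1.11 without AGN193109 replicate 4E (limma adjusted p = 4.80e-04). In clutch D alone the limma adjusted p was 0.478 and in clutch E alone 0.00485.

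xFRP was the third member called between the compounds. It had 8.27, 8.35, 10.999 and 11.7 FPKM with TTNPB in clutch E and 6.31, 7.86, 9.80 and 8.31 FPKM in clutch D, beside the AGN193109 values given above. The means were 8.95 ± 1.77 FPKM with TTNPB and 5.04 ± 1.81 FPKM with AGN193109 (SD, n = 8 each), with a log2 difference of 0.77 ± 0.17 (SE, limma adjusted p = 0.0190). Without AGN193109 replicate 4E the difference was 0.65 (limma adjusted p = 0.0243). All 8 TTNPB libraries lay above the AGN193109 mean of their clutch, though values of the groups overlapped within clutch D. The same count was 8 of 8 for gremlin, which was not called (limma adjusted p = 0.744). For frzb3, also not called (limma adjusted p = 0.781), 8 of 8 lay at or below the AGN193109 mean of their clutch. These counts were not made over all tested records, so no weight is placed on them. The xFRP call was lost in a fit of these groups alone (limma adjusted p = 0.0954), in each clutch alone (0.0936 in clutch E and 0.7496 in clutch D), and on leaving out TTNPB 3E, TTNPB 4E, AGN193109 1D or AGN193109 2E (0.0501 to 0.0569). Against vehicle, the xFRP difference was 0.30 for TTNPB (limma adjusted p = 0.962).

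Twisted gastrulation mRNA differed by 0.70 ± 0.23 between TTNPB and AGN193109 (SE, limma adjusted p = 0.221), and by 0.49 without AGN193109 replicate 4E (limma adjusted p = 0.206). Summed over the pair of records, twisted gastrulation averaged 16.99 ± 3.71 FPKM with TTNPB and 8.80 ± 3.14 FPKM with AGN193109 (SD, n = 8 each), a log2 difference of 0.95 ± 0.21 (SE, limma adjusted p = 0.0162). That sum was 2.27 FPKM in AGN193109 replicate 4E, against 6.95 to 11.6 FPKM in the other AGN193109 libraries. It was not tested without replicate 4E. The summed sizzled and frzb3 records had 11.8 ± 6.93 FPKM with TTNPB and 15.6 ± 9.40 FPKM with AGN193109, a log2 difference of -0.36 (95% interval -0.69 to -0.02, limma adjusted p = 0.587). In a fit with a minimum of 0.5 FPKM noggin4 differed by -0.55 (limma adjusted p = 0.480), with a mean of 0.203 FPKM with TTNPB and 0.862 FPKM with AGN193109. The remaining tested members had limma adjusted p-values of 0.677 or more with all libraries. Without AGN193109 replicate 4E they were lower for chordin (log2 difference -0.28, limma adjusted p = 0.106), noggin (-0.41, limma adjusted p = 0.109) and cerberus (-0.24, limma adjusted p = 0.213), and still not called.

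**Figure D3:**
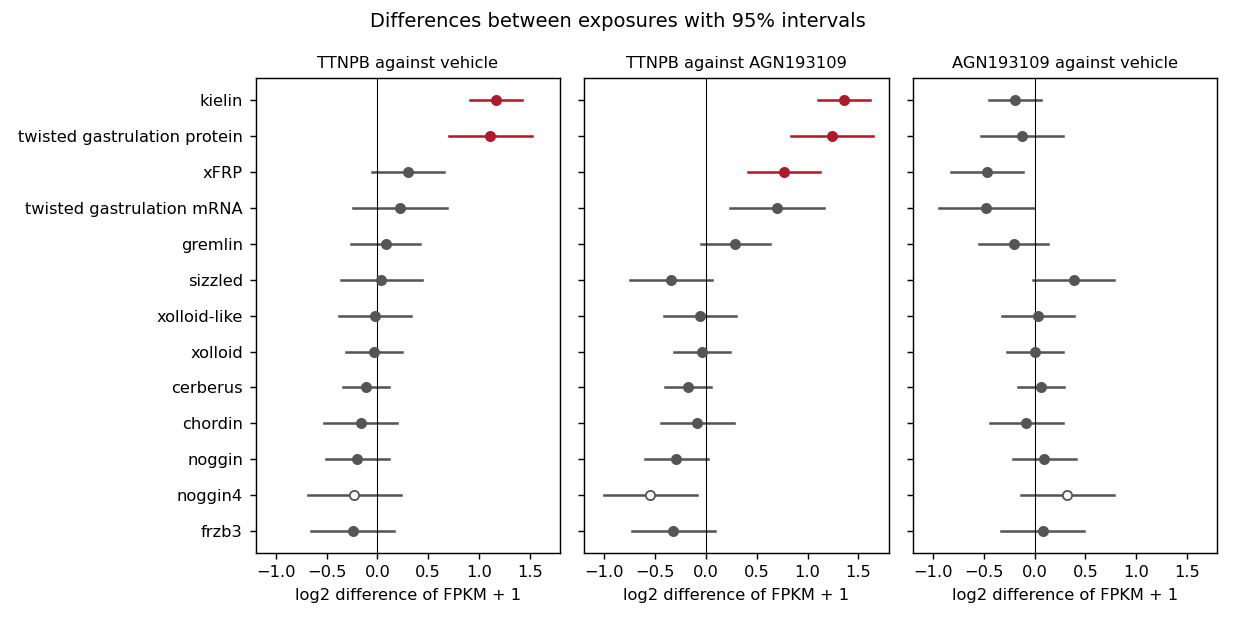
Log2 differences of FPKM + 1 (points) with 95% intervals (lines) for each member in the 3 comparisons of exposures, with records past an adjusted p of 0.05 in red and noggin4, from a fit with a minimum of 0.5 FPKM, as an open point. Kielin and twisted gastrulation protein stand apart to the right in both comparisons with TTNPB on top, and xFRP in the one against AGN193109.

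The responses were also compared between the clutches. In the test of the interaction of exposure and clutch, 0 of 12 members were called for TTNPB against vehicle, for AGN193109 against vehicle or for TTNPB against AGN193109. The share of all tested records called there was 0% for the comparisons with vehicle and 0.0458% for TTNPB against AGN193109. The limma test gave an unadjusted p under 0.05 to 0 members in each comparison with vehicle and to 2 members for TTNPB against AGN193109. Those were kielin, whose difference was larger by 0.73 in clutch E (limma adjusted p = 0.668), and xFRP, larger by 0.78 (limma adjusted p = 0.714).

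The clutches themselves differed in 6 of 12 members, with 5 lower and 1 higher in clutch E than in clutch D. Sizzled and frzb3 differed most. Of all tested records 31.9% were called between the clutches, 28.1% lower and 3.73% higher in clutch E, so the members' count stands beside a high background. The median difference of all tested records was -0.20, and the split of calls depended on scaling. With quantile normalization 2586 records were higher and 2814 lower in clutch E, against 732 higher and 5524 lower without it. Each clutch is 1 sibship, so mother, father and any difference in stage or handling between clutches cannot be told apart.

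frzb3 had 0.467 to 3.16 FPKM with a median of 1.71 in clutch E, against 5.16 to 11.4 FPKM with a median of 8.16 in clutch D. Sizzled had 2.10 to 6.91 FPKM with a median of 4.16 in clutch E, against 7.05 to 19.4 FPKM with a median of 13.9 in clutch D. For each record the highest library of clutch E lay below the lowest of clutch D, which was so for 3.42% of tested records. The log2 differences were -1.82 ± 0.16 for frzb3 (SE, limma adjusted p = 8.21e-09) and -1.43 ± 0.16 for sizzled (SE, limma adjusted p = 3.17e-07). Under quantile normalization they were -1.61 and -1.18 (limma adjusted p = 9.08e-07 and 2.91e-05). Summed over both records, sizzled averaged 5.97 ± 1.996 FPKM in clutch E and 21.4 ± 4.06 FPKM in clutch D (SD, n = 12 each).

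The sizzled difference between clutches was present in each exposure. Sums of both records averaged 5.76 ± 2.48 FPKM in clutch E and 17.8 ± 2.998 FPKM in clutch D with TTNPB, 7.06 ± 2.28 and 24.1 ± 2.55 FPKM with AGN193109, and 5.08 ± 0.735 and 22.1 ± 4.15 FPKM with vehicle (SD, n = 4 each). The ratio of chordin to this sum, the antagonist over the inhibitor of its protease, was 12.1 ± 2.93 in clutch E and 3.28 ± 0.523 in clutch D for vehicle embryos. It was 9.92 ± 3.70 in clutch E and 3.81 ± 0.429 in clutch D with TTNPB. With AGN193109 it was 9.28 ± 5.90 in clutch E and 3.15 ± 0.494 in clutch D (SD, n = 4 each). AGN193109 replicate 4E, at 2.22, lay below every library of clutch D, with chordin at 20.9 FPKM and the sum at 9.39 FPKM. The ratio without that library was not computed.

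**Figure D4:**
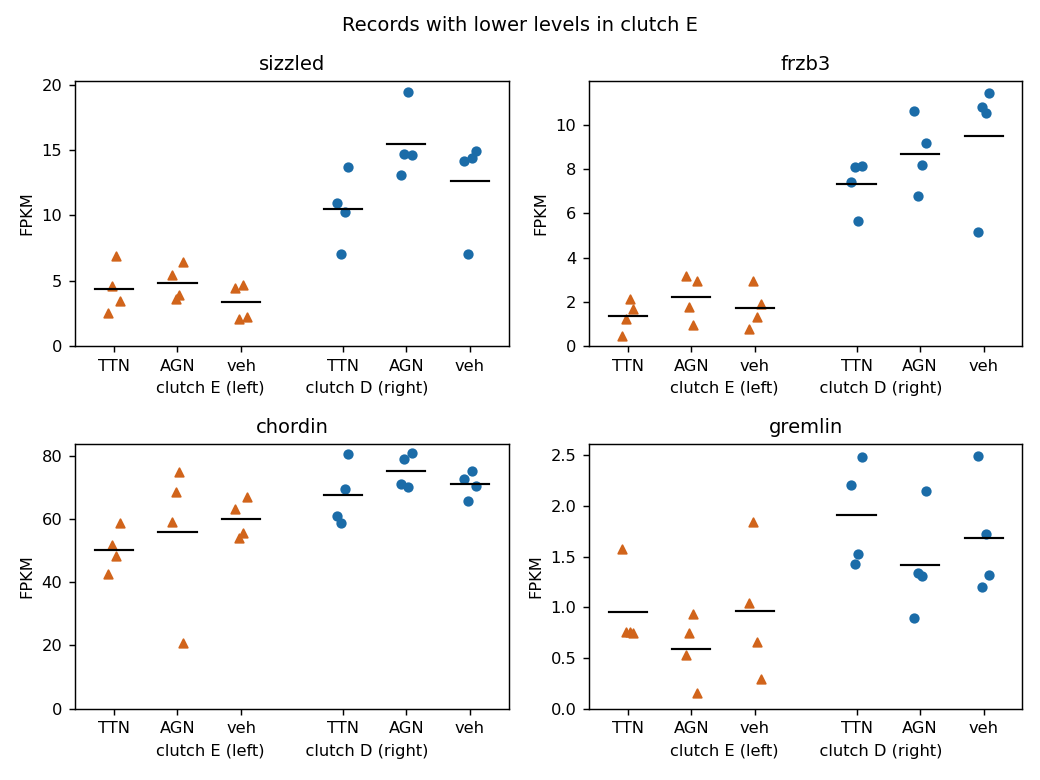
FPKM (linear axes from 0) of sizzled, frzb3, chordin and gremlin in clutch E (left, triangles) and clutch D (right, circles), within each clutch by TTNPB (TTN), AGN193109 (AGN) and vehicle (veh), with a black bar at the mean of 4 libraries. Sizzled and frzb3 do not overlap between clutches, whereas chordin and gremlin do, and the lowest chordin value is AGN193109 replicate 4E.

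Chordin was lower in clutch E by a smaller amount. It had 20.9 to 74.7 FPKM with a median of 57.3 in clutch E, against 58.8 to 80.8 FPKM with a median of 70.6 in clutch D, and the clutches overlapped. Its log2 difference was -0.41 ± 0.14 (SE, limma adjusted p = 0.0309). Without AGN193109 replicate 4E it was -0.28, called as well (limma adjusted p = 0.00194), and under quantile normalization -0.22 (limma adjusted p = 0.0310). Under upper-quartile scaling it was -0.17 and not called (limma adjusted p = 0.140), and the call was also lost without TTNPB 4D (0.0512) or TTNPB 1E (0.0522).

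Gremlin averaged 0.837 ± 0.477 FPKM in clutch E and 1.67 ± 0.532 FPKM in clutch D (SD, n = 12 each), with overlap, and a log2 difference of -0.56 ± 0.13 (SE, limma adjusted p = 0.00265). It was lower in clutch E under each scaling (limma adjusted p = 0.0196 with quantile normalization and 0.00934 with upper-quartile scaling). Xolloid-like had 2.01 to 5.95 FPKM with a median of 4.09 in clutch E, against 3.45 to 7.02 FPKM with a median of 5.49 in clutch D. Its log2 difference of -0.38 ± 0.14 (SE, limma adjusted p = 0.0423) shrank to -0.16 with quantile normalization and was then not called (limma adjusted p = 0.382). The call was also lost, with limma adjusted p between 0.0512 and 0.0807, on leaving out any 1 of 14 libraries, namely TTNPB 1D, 3D or 1E, AGN193109 1D, 2D, 3D, 4D, 1E, 3E or 4E, and vehicle 2D, 4D, 1E or 3E. Xolloid differed by -0.26 (limma adjusted p = 0.0707), and it was called on leaving out TTNPB 1D (0.0467) or vehicle 2D (0.0366). Kielin was the member higher in clutch E, with 1.86 ± 1.64 FPKM in clutch E and 0.884 ± 0.712 FPKM in clutch D (SD, n = 12 each), and a log2 difference of 0.48 ± 0.10 (SE, limma adjusted p = 8.38e-04). Its means in clutch E and clutch D were 4.04 and 1.82 FPKM with TTNPB and 0.984 and 0.429 FPKM with vehicle. With AGN193109 they lay closer, at 0.537 ± 0.181 and 0.409 ± 0.028 FPKM (SD, n = 4 each). Cerberus, noggin, xFRP and the twisted gastrulation records were not called, and the differences of cerberus, xFRP and twisted gastrulation mRNA were below 0 as deposited and above 0 under both scalings.

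Records of the rest of the pathway, and of related ligands and secreted proteins, were read beside the members, by lists drawn from the descriptions. Of BMP-class ligands, which bind the receptors that the antagonists shield them from, 9 records were tested and 0 were called between TTNPB and vehicle. Their most abundant record was XBMP7, with 59.6 FPKM with TTNPB, 64.4 FPKM with AGN193109 and 61.3 FPKM with vehicle. BMP4 had 27.6 FPKM with TTNPB and 20.3 FPKM with vehicle (log2 difference 0.44 ± 0.25, limma adjusted p = 0.935). Anti-dorsalizing morphogenetic protein 1, a BMP-class ligand made in the organizer, had 15.1 FPKM with TTNPB, 21.9 FPKM with AGN193109 and 20.4 FPKM with vehicle. It was not called against vehicle (log2 difference -0.40 ± 0.14, limma adjusted p = 0.386), and against AGN193109 it was called only in alternatives (limma adjusted p = 0.0125 with quantile normalization and 0.0110 without AGN193109 replicate 4E).

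Further lists were Nodal and Vg1-class ligands (6 tested), BMP receptors and Smads (10 tested) and other extracellular proteins (13 tested). The last list also holds Wnt inhibitors, among them Dickkopf-1, Frzb-1 and crescent. Each of these lists also had 0 records called between TTNPB and vehicle. Their median log2 differences were -0.12, 0.05 and -0.05, beside 0.01 over all tested records and 0.01 over the members. The most abundant records were derriere (34.9 FPKM over all libraries), mothers against DPP (76.9 FPKM) and syndecan-1 (126 FPKM), a proteoglycan of the cell surface. The description of mothers against DPP does not say which Smad it is. Between AGN193109 and vehicle 0 records of any of these lists were called.

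BMP target transcription factors, which include the vent homeobox genes and the Id inhibitors of DNA binding, had 12 tested records and 0 called between TTNPB and vehicle, with a median of 0.08. Xvent-2B, VENT-2 and Xvent-1 averaged 101, 98.8 and 74.0 FPKM with TTNPB, against 97.1, 101 and 65.5 FPKM with vehicle. Id2 had 31.0 FPKM with TTNPB, 19.8 FPKM with AGN193109 and 21.2 FPKM with vehicle. It was called against AGN193109 (log2 difference 0.67 ± 0.16, limma adjusted p = 0.0322). Against vehicle its difference of 0.52 ± 0.16 was not called (limma adjusted p = 0.240), although it was with quantile normalization (0.0423) or without AGN193109 replicate 4E (0.0323).

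Between the clutches 6 of the 12 tested records of target transcription factors were lower and 0 were higher in clutch E. Among all tested records 28.1% were lower and 3.73% higher. The median of the list was -0.41, beside -0.20 over all records. Some of its records share a gene name, such as Xvent-1 and VENT homeobox 1, so the counts are of records and not of separate genes. Under quantile normalization 5 were lower and 0 higher, with a median of -0.21, and 3 of 12 then lay above 0. Of the 19635 tested records, 2814 were lower and 2586 higher under that scaling. Xhox3 averaged 2.88 ± 1.79 FPKM in clutch E and 6.40 ± 1.54 FPKM in clutch D (log2 difference -1.03 ± 0.16, limma adjusted p = 4.19e-05). Id2 averaged 15.8 ± 4.90 FPKM in clutch E and 32.2 ± 9.16 FPKM in clutch D (-0.999 ± 0.130, limma adjusted p = 3.19e-06). Both were also called under quantile normalization.

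The counts of the other lists stand beside the same 28.1% of all tested records called lower and 3.73% called higher in clutch E. Their counts under quantile normalization stand beside 2814 lower and 2586 higher of the 19635 tested records. Of 9 ligand records, several of them of BMP7, 2 were lower, ADMP2 (-0.78) and a record of BMP7 (-0.44), and 0 were higher. Of 10 receptors and Smads 2 were lower, BAMBI, a decoy receptor that BMP induces (-1.04), and mothers against DPP (-0.37), and 1 was higher, Smad6 (0.37). Of 6 Nodal and Vg1-class ligands 2 were lower, derriere (-0.42) and Xnr4 (-0.33), and 1 was higher, Vg1 (0.63). Of 13 other extracellular proteins 5 were lower, led by syndecan-4.1 (-0.75) and Tsukushi-B2 (-0.54), and 0 were higher, but 3 were lower and 5 higher under quantile normalization. derriere and Xnr4 were not called under quantile normalization (limma adjusted p = 0.151 and 0.421). The gastrula layer records used to check the stage differed between clutches too. Of 8 tested, 1 was lower and 2 were higher in clutch E, and 1 was lower and 4 were higher under quantile normalization.

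**Figure D5:**
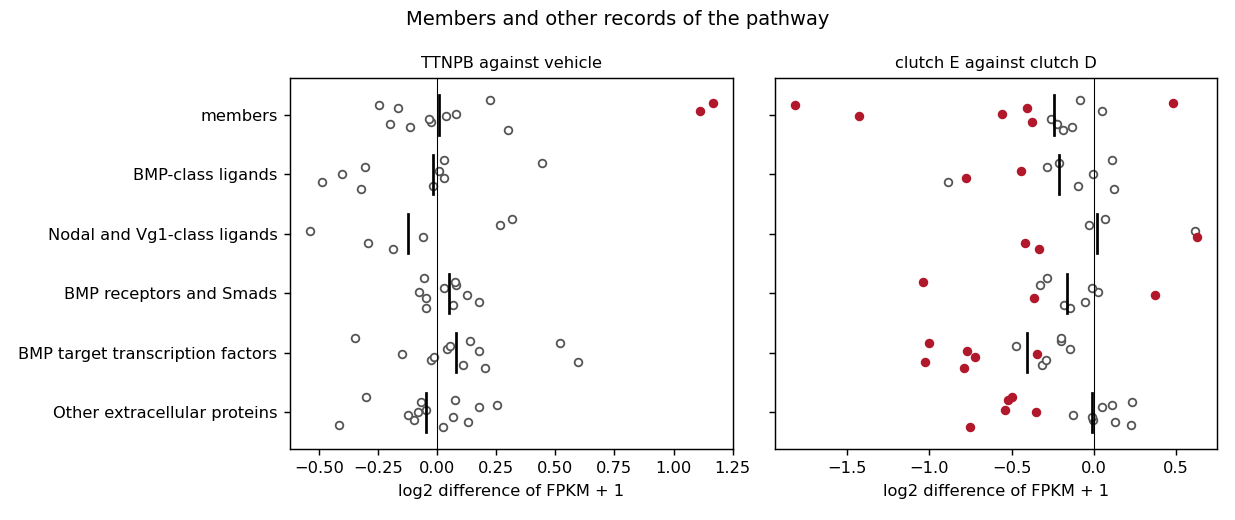
Log2 differences of FPKM + 1 for the 12 tested members and for records of 5 lists of the pathway and related proteins. Panels show TTNPB against vehicle (left) and clutch E against clutch D (right). Filled red points are past an adjusted p of 0.05, open points are the rest and a bar marks the median. In the left panel kielin and twisted gastrulation protein are the red points. In the right panel all 12 records of target transcription factors lie below 0, of which 9 do under quantile normalization.

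The members were then compared with each other across libraries, as a description. Over the 23 libraries without AGN193109 replicate 4E, twisted gastrulation protein and kielin had a Pearson r of 0.83 on log2(FPKM + 1), and 0.77 within clutch D and 0.93 within the 11 libraries of clutch E. After the mean of each exposure and clutch was removed, r was 0.08 over these 23 libraries and 0.21 over all 24. The means removed were those of all 24 libraries, replicate 4E among them. Within groups, this pair of records thus varied together weakly at most. Sizzled and frzb3 separate by clutch, and within clutches their r was 0.07 in clutch E and -0.03 in clutch D. Chordin had an r of 0.42 with xolloid within clutch E and 0.69 within clutch D, and of 0.68 with noggin within clutch E and 0.54 within clutch D. With the group means removed in the same way, chordin had an r of 0.62 with xolloid and 0.62 with noggin over the 23 libraries. Over all 24 these were 0.81 and 0.80. Replicate 4E lowered the AGN193109 means of clutch E that were removed. For chordin the FPKM mean was 55.7 with it and 67.3 without it, for xolloid 2.33 and 2.76, and for noggin 2.58 and 3.09. The r of 0.62 over 23 libraries is thus not free of that library, and r with means taken without it was not computed. The r values without removal of group means also hold differences between exposures, and those over both clutches also hold differences between clutches.

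The records whose levels were most like those of 3 members were ranked by Pearson r over the same 23 libraries. The ranking covered all tested records outside the members, so another member could not appear in it. For chordin, the record with a gene name that came first was crescent, a frizzled-related protein of the organizer, with an r of 0.82 over the 23 libraries, 0.83 within clutch E and 0.41 within clutch D. For frzb3, it was brachyury, the T-box factor of the mesoderm, with 0.93 over the 23 libraries, 0.64 within clutch E and 0.65 within clutch D. Brachyury averaged 109 FPKM in clutch E and 153 FPKM in clutch D. A ranking over both clutches also favours records that differ between clutches, as frzb3 and sizzled do. For sizzled, NADPH-P450 reductase (0.68 within clutch E and 0.83 within clutch D) and annexin A1 (0.65 and 0.68) led. With replicate 4E included, none of these named records was among the 5 most alike for its member, and chordin's were then led by a record described as hypothetical protein MGC81043, followed by mediator complex subunit 16.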

How the data were processed

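Libraries from 24 pools of 5 embryos were sequenced on an ABI SOLiD instrument after amplification of total RNA to cDNA (NuGEN Ovation V2), per the labels' protocols, and the submitters' processing notes name TopHat, Bowtie and Cufflinks. The authors deposited FPKM, that is fragments scaled to transcript length and library size, as 1 column per library, and no source used here gives the transcript set behind them. Low FPKM values are model estimates, so reads and depth could not be recovered, and no interval that needs counts was computed. Groups, clutches and replicate names came from the labels, which mention 5 replicates per clutch where 4 per exposure are analysed here.

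Values were transformed to log2(FPKM + 1) and fitted with limma 3.58.1 (R 4.3.3, trended empirical Bayes) on the 19635 records averaging 1 FPKM or more, with 95% intervals and SE from that fit. The fit was tried on simulated data with independent normal noise in each library. Noise shared by a clutch or dish and outlying libraries were thus not covered. Added terms gave the clutch interactions. The members and the pathway lists were chosen with earlier results of these data known, and false text matches were removed from the lists by meaning. Named were the 3 listed members, members called or with an unadjusted p under 0.05, the most abundant of each role, and in each list the most abundant record with at most 2 rises and 2 falls past the threshold. BMP4, Xnr4, anti-dorsalizing morphogenetic protein 1 and the vent records were named after their values were seen. Alternatives covered pseudocount, filter, scaling, model terms, clutches, summed records and each library left out in turn.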

Additional observations from a re-analysis of the deposited data

Results flagged for a closer look

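Each record was examined for a library set apart from the others of its exposure, by the gap to its nearest neighbour over the group's range. Of 39 groups of 8 libraries 3 were marked, and chance marks about 1 in 20 such groups. All 3 were the same library, AGN193109 replicate 4E, which was lowest in that group for cerberus (45.9 FPKM, against 62.3 to 74.0 FPKM in the other AGN193109 libraries), for xolloid (1.045 FPKM, against 2.66 to 3.96 FPKM) and for chordin (20.9 FPKM, against 58.9 to 80.8 FPKM). Replicate 4E also had the lowest median over all tested records and the largest share of FPKM in its 10 most abundant records, and whether these values move the member levels was not tested.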

How the results depend on the processing

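Of 1728 values of single members under the alternatives, 1690 kept their direction where called and their side of the threshold, 35 lost their call, 3 gained one and 0 reversed. TTNPB against vehicle, with 2 members called, gave 0 with a mean of at least 5 FPKM, which removes kielin and twisted gastrulation protein, 0 with clutch means as replicates, 1 in clutch D alone, 1 in clutch E alone and 1 with records of a gene summed. TTNPB against AGN193109, with 3 called, gave 1 with a mean of at least 5 FPKM, 0 with clutch means and 1 in clutch D alone. Clutch E against clutch D, with 6 called, gave 3 with a mean of at least 5 FPKM. Clutch means leave 2 values per exposure. Leaving out each library in turn gave 2 to 2, 2 to 3 and 4 to 6 members in those comparisons, and 0 for AGN193109 against vehicle and for the clutch interactions. Over all records the alternatives gave 26 to 362 calls for TTNPB against vehicle (163 as reported), 0 to 16 for AGN193109 against vehicle (4) and 46 to 346 for TTNPB against AGN193109 (212). Without AGN193109 replicate 4E alone they were 300, 16 and 294. Between the clutches the alternatives gave 3745 to 8124 calls over all records (6256 as reported). Without replicate 4E that count was 7774, with 1757 higher and 6017 lower in clutch E. Same-numbered libraries did not vary together (24 correlations from -0.11 to 0.12, median 0.004). With the number as a replicate block the counts were 2, 0 and 4, twisted gastrulation mRNA being added for TTNPB against AGN193109 (0.70, limma adjusted p = 0.0494). FPKM gives no depth, so how far low records such as noggin4 are limited by counts is unknown.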
